A study of Mus musculus with 2 samples.

Results

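The genes described here encode the membrane sector of the vacuolar proton pump (V-ATPase), called V0, and its accessory subunits. They are 10 named genes, taken by symbol from the 16614 genes listed: the a subunit genes Atp6v0a1, Atp6v0a2 and Tcirg1, the c ring genes Atp6v0c and Atp6v0b, the d subunit genes Atp6v0d1 and Atp6v0d2, the e subunit gene Atp6v0e, and the accessory genes Atp6ap1 and Atp6ap2. The study sequenced poly-A RNA of C57BL/6 mouse bone marrow macrophages, grown from flushed leg bones for 3 days in M-CSF (a macrophage growth factor) and then given RANKL (the cytokine that turns macrophages into osteoclasts) for 2 days. The groups are wild type (WT) and Foxo3 knockout (Foxo3 KO, without the forkhead transcription factor FoxO3), treated alike, with 1 library each; WT and KO below stand for these libraries. The type of Foxo3 allele, the age and number of the mice and any pooling do not appear in the sources used here.

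The V-ATPase burns ATP in its cytosolic part, V1, to turn a rotor in V0 that carries protons across a membrane. Most cells use it to acidify lysosomes and endosomes. Osteoclasts also place it in the ruffled border, the membrane facing bone, where the acid dissolves mineral. The a and d subunits exist as paralogues: Tcirg1 encodes a3, the form of the osteoclast ruffled border, whose loss causes osteopetrosis, and Atp6v0d2 encodes the d form that osteoclasts induce, while Atp6v0a1, Atp6v0a2 and Atp6v0d1 are expressed in many tissues.

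Values are FPKM (read as such from the numbers deposited), which correct for transcript length and library size, so that levels of different genes can be set side by side. The log2 ratio below is the log2 of KO over WT after a pseudocount of 1 FPKM was added to both, and the 10003 genes at 1 FPKM or more in either library are called measured. With 1 library per genotype no value has a replicate error and nothing could be tested, so differences describe these 2 libraries, not the genotypes. Where 2 values stand together, the WT value comes first. Size was read by a fixed rule, at least 2-fold on this scale. Foxo3 stood at 10.3 FPKM in the WT library and 0.548 FPKM in the KO library, which matches the labels. Read totals are not given, and low genes put the KO library at 1.40 times the depth of the WT library. Osteoclast markers were abundant in both: Acp5, the osteoclast acid phosphatase, read 7737 FPKM in WT and 8636 FPKM in KO. Macrophage markers were present too, none of them at 0. Summed over 10 genes they stood at 2953 FPKM in WT and 2699 FPKM in KO. Most of that sum came from Cd68, at 1573 and 1546 FPKM, and Csf1r, at 697 and 695 FPKM. Of 7 T, NK and B cell markers, 4 were listed at 0 in WT and 3 in KO. The 7 summed to no more than 0.340 FPKM in either. These are bulk cultures, in which fewer cells of a type and less RNA per cell cannot be told apart.

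All 10 members were measured in both libraries, from 18.1 FPKM (Atp6v0a2) to 987 FPKM (Atp6v0b) in the WT library. The order of the 10 levels was the same in the KO library. Of the 10, 9 were slightly higher in the KO library and 1, Atp6v0a1, was clearly lower, at 65.1% of its WT level. Values above WT are common in this comparison: 57.6% of all measured genes lay above 0 on this scale, and after trimmed-mean scaling or centring on the median gene 7 of the 10 members were higher, with Atp6v0a2 and Atp6v0d1 then just below 0. No member reached 2-fold in either direction, against 0.120% of all measured genes higher and 0.200% lower. The members' median log2 ratio was 0.09, beside 0.03 over all measured genes. Abundant genes as a whole leaned the same way: the 824 genes at 100 FPKM or more in the WT library, a limit chosen after the values were seen, had a median of 0.05, with 66.7% above 0.

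**Figure D1:**
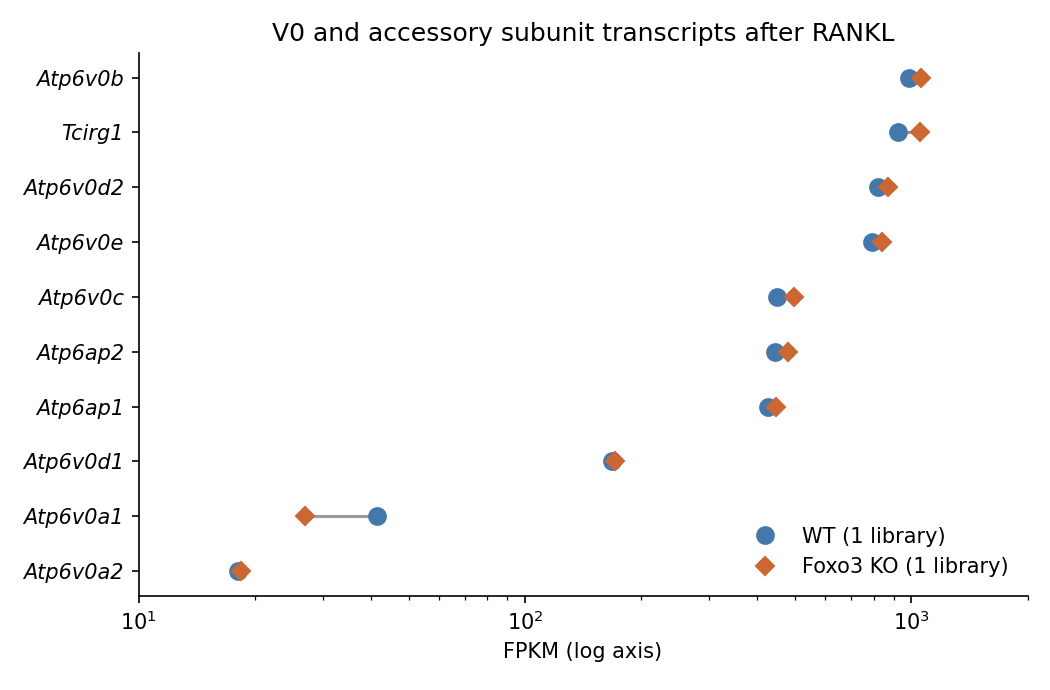
FPKM of each member (log axis) in the WT library (circles) and the Foxo3 KO library (diamonds), ordered by WT level, with a grey line joining the pair. The pairs lie close together for 9 genes, and Atp6v0a1 is the pair drawn apart, at 41.5 and 27.0 FPKM.

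The a subunit forms the path by which protons reach and leave the c ring, and its paralogues steer the pump to different membranes. Tcirg1, the osteoclast form a3 (chromosome 19, 3896050 to 3907133, mm10), stood at 924 FPKM in WT and 1054 FPKM in KO. Its log2 ratio of 0.19 was the highest of the 10 members, and 14.3% of the 91 measured genes of like WT level (within 0.5 on the log2 scale) lay at least as far from 0. Atp6v0a1 (chromosome 11, 101009452 to 101063719), a form best known from synaptic vesicles, stood at 41.5 FPKM in WT and 27.0 FPKM in KO, with a log2 ratio of -0.60. It was the 1 member of 10 at least 1.5-fold lower, against 0.940% of all measured genes, and 0 members were 1.5-fold higher, against 0.410%. With a pseudocount of 5 its log2 ratio was -0.54, short of 1.5-fold, so that call is lost. At 1.2-fold it was again the 1 member lower, against 6.23%, with 0 higher, against 4.93%. Among the 1476 measured genes of like WT level, 14 (itself included) had a log2 ratio as low or lower. Atp6v0a2 (chromosome 5, 124628576 to 124724455), found on endosomes and the Golgi apparatus, read 18.1 FPKM in WT and 18.4 FPKM in KO, with a log2 ratio of 0.02. The 2 widely expressed a genes thus differed from each other: Atp6v0a1 was 2.29 times Atp6v0a2 in the WT library and 1.47 times in the KO library.

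Macrophage markers also read lower in the KO library. All 10 listed ones lay below 0, under both scalings too, against 4240 of all 10003 measured genes without scaling. Their median log2 ratio was -0.29, and Csf1r (-0.005) and Cd68 (-0.025) lay almost at 0. Mrc1, the mannose receptor gene, chosen for naming after its values were seen, stood at 90.2 and 58.0 FPKM, 64.4% of its WT level. The markers were spread widely: Csf1r, the receptor for M-CSF, read 697 and 695 FPKM and Cd36, a lipid scavenger receptor, 84.7 and 31.9 FPKM. At 99.6% and 37.7% of their WT levels, these are the ends of the list. The part of the macrophage signal in the value of Atp6v0a1 was not tested.

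Measured as shares of the summed a subunit FPKM, Tcirg1 made up 93.9% in the WT library and 95.9% in the KO library. Atp6v0a1 made up 4.21% and 2.45%, and Atp6v0a2 1.84% and 1.67%. Tcirg1 was thus 22.3 times Atp6v0a1 in WT and 39.1 times in KO. The difference between the libraries (KO minus WT) was 129.6 FPKM for Tcirg1 and -14.5 FPKM for Atp6v0a1. The 2 widely expressed genes together went from 59.5 to 45.4 FPKM, and the sum over all 3 a genes was 984 FPKM in WT and 1099 FPKM in KO. Atp6v0a4, the form known from kidney, was listed at 0 in both.

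The d subunit is the stalk that couples the rotor to V1. Atp6v0d2 (chromosome 4, 19876841 to 19922605), the osteoclast form, stood at 818 FPKM in WT and 869 FPKM in KO, with a log2 ratio of 0.09. Atp6v0d1 (chromosome 8, 105524465 to 105566047), the widely expressed form, read 168 and 171 FPKM, a log2 ratio of 0.02. Atp6v0d2 made up 83.0% of the summed d subunit FPKM in WT and 83.6% in KO, 4.87 and 5.09 times Atp6v0d1. The share of the widely expressed d form, 17.0% and 16.4%, was larger than that of either widely expressed a form. The pair of osteoclast forms differed little from each other in level: Tcirg1 was 1.13 times Atp6v0d2 in WT and 1.21 times in KO.

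**Figure D2:**
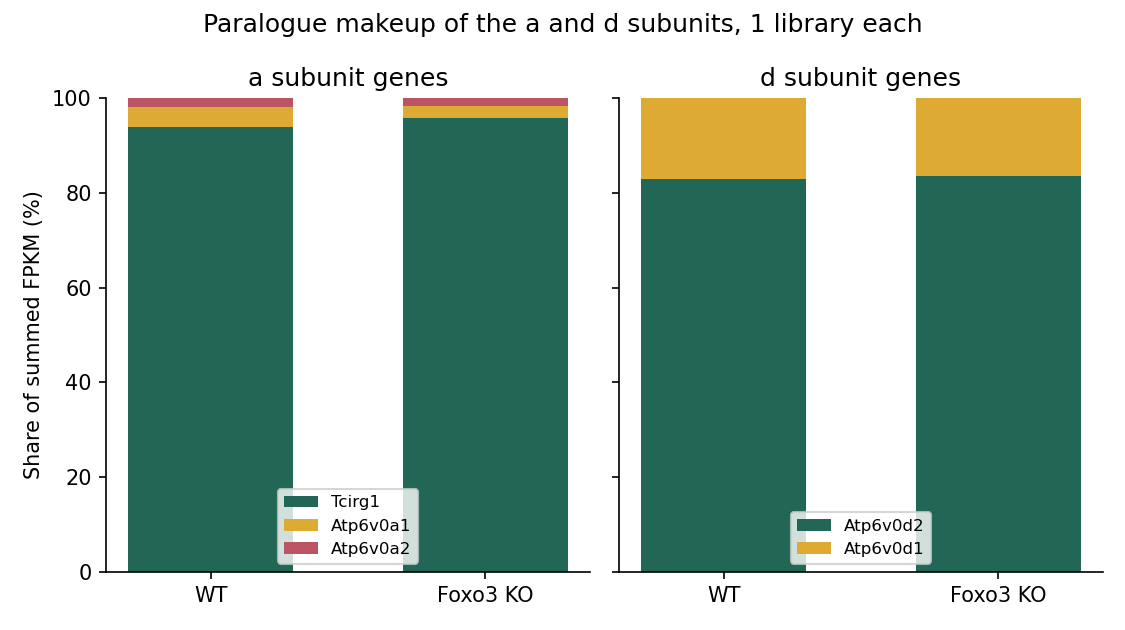
Share of summed FPKM (percent) taken by each a subunit gene (left) and each d subunit gene (right) in the WT and the Foxo3 KO library, 1 library per bar. Tcirg1 fills 93.9% and 95.9% of the a bars and Atp6v0d2 83.0% and 83.6% of the d bars.

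The c ring is the rotor that carries the protons. Atp6v0c (chromosome 17, 24163866 to 24169702) encodes c, its main building block, and stood at 449 FPKM in WT and 496 FPKM in KO, with a log2 ratio of 0.14. Its value is less certain. The processed pseudogene Atp6v0c-ps2 shares an unbroken stretch of 354 bases with Atp6v0c, against a coding length of 465 bases. For Atp6v0c-ps1 the longest shared stretch is 90 bases. How reads matching several places were counted is not given. Pseudogenes of the other members were not searched for. Atp6v0b (chromosome 4, 117884326 to 117887333) encodes the related c″ subunit and was the most abundant member, at 987 FPKM in WT and 1059.8 FPKM in KO, with a log2 ratio of 0.10. Although a ring holds several c subunits for a single c″, the Atp6v0c level was 45.5% of the Atp6v0b level in WT and 46.8% in KO. Atp6v0e (chromosome 17, 26663231 to 26699647), for the small e subunit, read 789.7 FPKM in WT and 838 FPKM in KO, with a log2 ratio of 0.09, and its paralogue Atp6v0e2 read 0.0680 and 0.0162 FPKM. The assembled complex holds single copies of a, d, c″ and e. A comparison chosen after the values were seen put the first 3 close together: in the WT library the summed a genes stood at 984 FPKM, the summed d genes at 987 FPKM and Atp6v0b at 987 FPKM, with Atp6v0e lower at 789.7 FPKM. In the KO library the same sums were 1099, 1040.0 and 1059.8 FPKM, and Atp6v0e stood at 838 FPKM. Without Atp6v0e the highest was 1.06 times the lowest, against 1.003 times in the WT library. These are transcript levels, and protein copies were not measured. This comparison leaves out other parts of the pump, at other levels. Atp6v1g2 read 3.18 and 2.04 FPKM. The other measured V1 genes ran from Atp6v1h, at 226 and 228 FPKM, to Atp6v1b2, at 1257 and 1349 FPKM. Atp6ap1 read 427 and 446 FPKM, Atp6ap2 444 and 479.9 FPKM, and Rnasek, a protein bound to V0, 411 and 426 FPKM.

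The accessory subunits help assemble and steer the pump. Atp6ap1 (Ac45; chromosome X, 74297097 to 74304721) guides it through the secretory pathway and stood at 427 FPKM in WT and 446 FPKM in KO, with a log2 ratio of 0.06. Atp6ap2, known as the prorenin receptor (chromosome X, 12587801 to 12617049), read 444 and 479.9 FPKM, a log2 ratio of 0.11. The 2 genes were nearly level with each other in both libraries, with Atp6ap1 at 0.961 and 0.929 times Atp6ap2. Summed over all 10 members the level was 5067 FPKM in WT and 5459 FPKM in KO, 7.73% above WT.

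**Figure D3:**
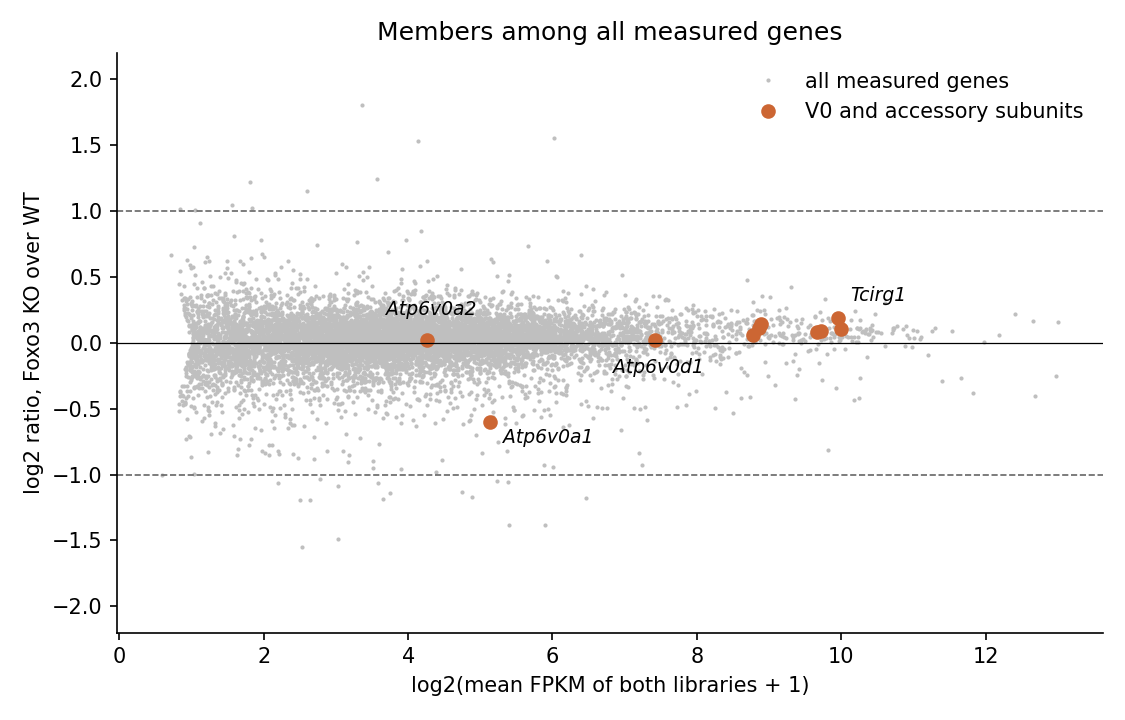
Log2 ratio (KO over WT) of all 10003 measured genes (grey) against log2 of the mean FPKM of both libraries plus 1, with the 10 members as orange circles and dashed lines at 2-fold; 4 genes lie beyond the plotted range. Only Atp6v0a1, at -0.60, lies at the edge of the grey cloud at its level, and Tcirg1, at 0.19, is the highest member.

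The paralogues differ widely in sequence. In GENCODE M21 the coding sequences of Atp6v0a1 and Tcirg1 were identical at 61.6% of aligned bases, those of Atp6v0a1 and Atp6v0a2 at 63.5% and those of Atp6v0d1 and Atp6v0d2 at 65.9%, and the longest stretch shared exactly by any transcripts of these pairs was 29 bases. Exons of Atp6v0a2 overlap those of the antisense gene 4930404A12Rik over 663 bases and exons of Atp6v0b those of the antisense gene Gm12841 over 243 bases. Whether counting used strand is not given, so reads of these pairs may not be separable. The exons of the other 8 members overlap no other gene of the annotation. Gene-level values do not separate the transcripts of 1 gene.

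To show what the members share in sequence, their promoters were searched on both strands for 3 motifs: CACGTG, the E-box bound by the MITF and TFE factors that drive lysosomal genes, TCACATG, a related motif of MITF, and GTAAACA, a forkhead motif of the kind FoxO factors bind. RefSeq windows (GRCm38.p6) from 250 bases before to 50 after the start site were in the table used for 8 members, over 12 windows. CACGTG, which reads the same on both strands, occurred in 3 of the 12 windows, each of another gene, against 7.15% of all 32851 windows in the table. By gene, it was in 3 of the 8 searched, against 8.09% of 27025 genes. Positions are counted from 1 at the start site used, with no 0. All CACGTG matches lie near it, their first base at -36 and -18 in Atp6v0b (in printed stretches that overlap), -3 in Atp6v0d1 and 4 in Atp6v0e. They are shown to let the flanks be compared, each as 30 bases on the gene's strand with the motif in capitals, for Atp6v0b at chr4:117887348-117887377 (minus strand, site 1) and chr4:117887330-117887359 (site 2), for Atp6v0d1 at chr8:105566050-105566079 (minus strand) and for Atp6v0e at chr17:26676387-26676416 (plus strand). The single TCACATG match, in capitals as its reverse complement and at position -16, is in Atp6v0c at chr17:24169448-24169477 (minus strand). The RefSeq start sites used for Atp6v0e and Atp6v0c lie inside the gene spans printed above, not at their ends.
Atp6v0b site 1: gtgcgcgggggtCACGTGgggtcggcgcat
Atp6v0b site 2: gggtcggcgcatCACGTGcgccggtcaggt
Atp6v0d1: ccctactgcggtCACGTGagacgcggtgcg
Atp6v0e: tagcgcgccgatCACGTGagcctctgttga
Atp6v0c: cggggacagatCATGTGAcgcgagcgcggc
TCACATG was in 3.99% of all windows, and GTAAACA, present in 3.65% of all windows, was in none of the 12. The 3 genes with CACGTG had log2 ratios of 0.10 (Atp6v0b), 0.02 (Atp6v0d1) and 0.09 (Atp6v0e). The 5 genes searched without it ran from -0.60 (Atp6v0a1) to 0.19 (Tcirg1). These are also the lowest and highest of all members, so the ranges cannot tell whether the motif matters. A match of letters is a description only.

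V1 is the cytosolic, ATP-burning sector of the same pump. Of its 13 genes 9 were measured, and 8 of these were higher in the KO library (7 under either scaling), with a median log2 ratio of 0.05. Over all measured genes 57.6% were higher, or 50.3% after trimmed-mean scaling. Among those at 100 FPKM or more in the WT library 66.7% were. Atp6v1d, a rotor shaft subunit, read 447 FPKM in WT and 502 FPKM in KO, and Atp6v1f, also of the shaft, 484 and 527 FPKM. The 1 lower gene was Atp6v1g2, a stator paralogue named after its values were seen, at 3.18 and 2.04 FPKM. No V1 gene reached 2-fold, which only 0.120% of all measured genes did upwards and 0.200% downwards. Rnasek, a small protein bound to V0, read 411 and 426 FPKM.

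Of 9 measured genes that assemble or bind the pump, 3 were higher (2 under either scaling) and 6 lower, with a median of -0.04. Rogdi, linked to the complex that joins V1 to V0, read 28.1 FPKM in WT and 32.7 FPKM in KO, and Tmem199, a V0 assembly factor, 24.6 and 26.8 FPKM. Over all measured genes 57.6% were higher. Of 8 partners in acid secretion, 5 were higher, with a median of 0.04. Among them Car2, the carbonic anhydrase that supplies protons, had a log2 ratio of 0.32, and Plekhm1, which serves vesicle transport to the ruffled border, one of -0.28. Clcn7, the chloride exchanger that works beside the pump, named after its values were seen, read 234 and 248 FPKM.

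The Ragulator and Rag proteins dock mTORC1 on the lysosome beside the pump. Of 9 measured genes 5 were higher (4 under either scaling) and 4 lower, with a median of 0.02. Rragc read 115 FPKM in WT and 102 FPKM in KO and Lamtor5 73.1 and 77.7 FPKM. Of the 4 MITF and TFE factor genes 3 were higher (2 under either scaling), with a median of 0.02. Mitf stood at 33.4 and 28.4 FPKM and Tfec at 43.3 and 48.9 FPKM, log2 ratios of -0.23 and 0.17. Tfeb (0.03) and Tfe3 (0.01), named with them to complete the family, were near 0. Of 10 osteoclast markers 7 lay above 0 (6 after either scaling), at a median of 0.16. They ran from Itgb3 at -0.28 to Car2, which is also an acid secretion partner, at 0.32. For each of these lists, the share of all measured genes above 0 is 57.6%, or 50.3% after trimmed-mean scaling. No gene of these pump, partner, lysosomal or osteoclast lists reached 2-fold. Few genes did at all, 0.120% of all measured genes higher and 0.200% lower.

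**Figure D4:**
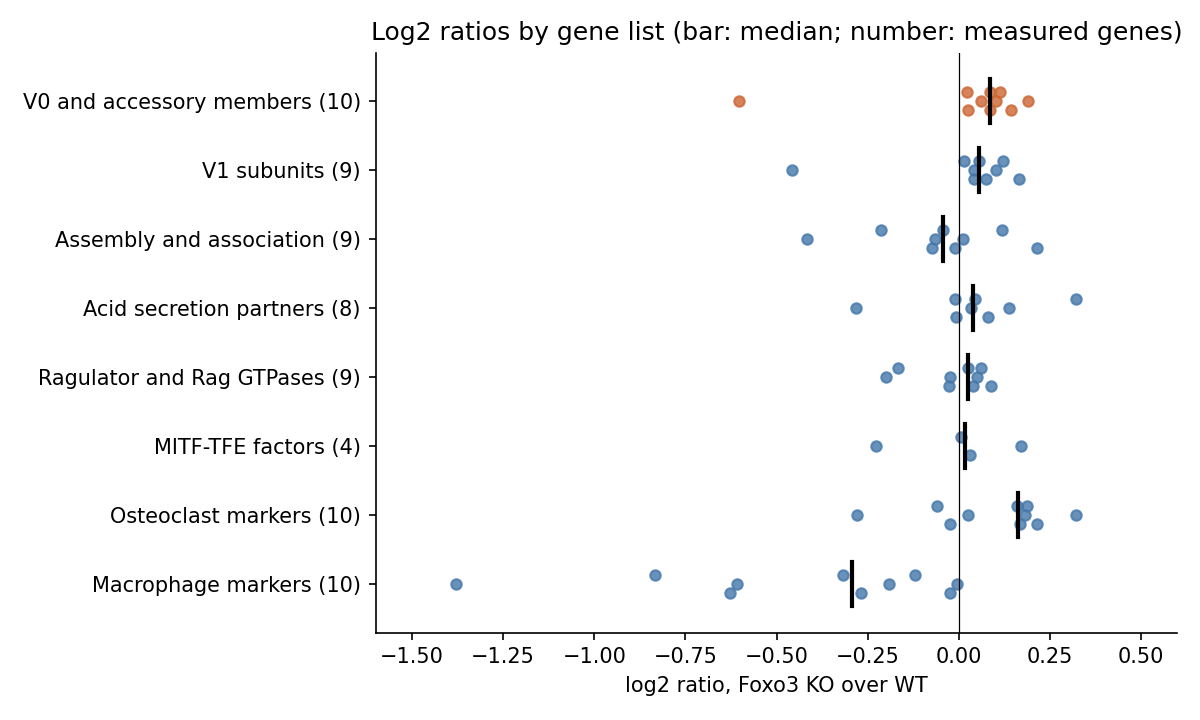
Log2 ratios (KO over WT) of the measured genes of 8 lists, 1 point per gene and a black bar at each median, with the number of measured genes in brackets. The members (orange) have a median of 0.09 with Atp6v0a1 apart at -0.60, and the macrophage markers have a median of -0.29.

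Markers of further cell types follow. The 8 neutrophil markers summed to 158.3 FPKM in WT and 154.5 FPKM in KO, with Retnlg listed at 0 in the KO library, and 7 stromal and osteoblast markers to 8.32 and 8.28 FPKM, with Bglap listed at 0 in the WT library. The 5 dendritic markers summed to 39.2 and 35.8 FPKM, none at 0. Of the 2 that were measured, Zbtb46 was higher in KO (1.14 and 1.48 FPKM) and Clec10a lower (37.4 and 33.2 FPKM), with a median log2 ratio of 0.02. The erythroid and megakaryocyte markers found summed to 55.8 and 26.3 FPKM, nearly all of it Pf4, the 1 measured gene, at 55.7 and 26.2 FPKM. Itga2b, the other marker found, read only 0.138 and 0.105 FPKM. The part of these cell types in the members' values was not tested.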

How the data were processed

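The RNA-seq libraries, 1 per genotype, were assigned by the labelled genotype. No header or label states a unit; from their range and decimals the deposited numbers were taken to be FPKM computed by the authors. A constant of 0.000001 seems to have been added to all of them and was removed. TopHat, edgeR and mm10 are listed, with no roles, per the submitters' processing notes. Quantifier, annotation and filters: not given in the sources used here. Log2 ratios were computed on the whole table with Python 3.11.15, numpy 2.4.6 and pandas 2.3.3, plots with matplotlib 3.10.9 and alignments with biopython 1.88. Relative depth came from 1661 genes detected in both libraries at under 0.15 FPKM, whose ratios pile up where reads are whole numbers, at the most frequent log2 ratio. Without read totals no counting interval is given. Exon overlaps were looked up for members only. The trimmed-mean scaling, the log2 ratio and the 2-fold rule were tested on simulated data, with planted changes larger than that of any member. The other steps were not tested in this way.

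The members and lists were chosen with earlier results of these data known. The text names all members and, from each further list of pump genes and partners, the 2 genes farthest from 0 at 10 FPKM or more. Other genes were chosen after their values were seen, those named from the marker lists included. Adgre1 was matched through its synonym Emr1, and Tldc1, Hba-a1 and Hbb-bs were not analysed here; 1 further marker is not reported here. Alternatives were pseudocounts of 0.25 and 5, other minimums, trimmed-mean scaling (30% of ratios and 5% of levels trimmed from each end), centring on the median gene, and 1.5-fold and 1.2-fold thresholds.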

Additional observations from a re-analysis of the deposited data

How the results depend on the processing

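Under the other pseudocounts and both scalings, every member's log2 ratio moved by less than the spread of genes of like level. The minimums cannot move these ratios, since all members pass them, and neither scaling nor adding Atp6v0a4, listed at 0, can move the shares. The count of members at least 2-fold lower, 0, became 1 at 1.5-fold and 1 at 1.2-fold, Atp6v0a1 in both, by construction of the threshold; at 1.2-fold 6.23% of all measured genes were lower and 4.93% higher, and 0 members were higher. The log2 ratio of Atp6v0a1 ran from -0.63 to -0.54 and that of Tcirg1 from 0.16 to 0.19 over all settings; with a pseudocount of 5, Atp6v0a1 at -0.54 no longer reached 1.5-fold. The members' median ran from 0.06, when centred on the median gene, to 0.09. Their mean, which Atp6v0a1 pulls down, was 0.02. A pseudocount of 0, added after the data were seen, left the median at 0.09. Trimmed-mean scaling shifts all log2 ratios by about 0.03, which takes Atp6v0a2 and Atp6v0d1 below 0. Over all genes, 12 higher and 20 lower at 2-fold became 5 and 6 when the pseudocount was 5, 17 and 39 when it was 0.25, 5 and 14 with a minimum of 10 FPKM, and 41 and 94 at 1.5-fold. No paired analysis was possible because there is a single library per genotype, so none could be left out either. Depth limits low genes most, and no member is among them.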
